A study of Homo sapiens with 10 samples.

Results

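The keratin and epidermal differentiation clusters are 3 gene-dense stretches of the human genome that serve epithelia, examined here by CUT&RUN in irradiated blood- and liver-derived cell lines. They were taken by position alone, in hg19 coordinates: from 38.8 to 39.8 Mb on chromosome 17, from 52.5 to 53.35 Mb on chromosome 12 and from 151.95 to 153.6 Mb on chromosome 1. Together they hold 3495 of the 2820626 bins of 1 kb in the signal tracks, or 0.124%, with 1000, 850 and 1645 bins in the order above. Each was set against the 500 kb on either side.

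Keratins form the intermediate filaments of epithelial cells as pairs of a type I and a type II chain. In the RefSeq gene order the chromosome 17 run goes from KRT222 to KRT17 and holds 62 protein-coding genes, 28 type I keratins and 34 keratin-associated proteins of hair. The chromosome 12 run goes from KRT80 to KRT18 and holds 27 keratin genes, all type II except the last, KRT18, the type I partner of its neighbour KRT8. KRT8 and KRT18 are the pair of simple epithelia and hepatocytes, whereas most other genes of these runs serve skin, hair and stratified epithelia. The chromosome 1 run goes from S100A10 to S100A1 and holds 63 genes. It has 20 late cornified envelope genes (LCE), 11 small proline-rich genes (SPRR), 16 S100A calcium-binding proteins, 7 fused-type S100 genes such as FLG (filaggrin), and 9 others such as IVL (involucrin) and LORICRIN, both components of the cornified envelope. Outside epithelia such clusters are usually silent, and silent developmental genes can carry H3K27me3, the histone mark laid down by Polycomb repressive complex 2.

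Gamma-H2AX is H2AX phosphorylated around DNA double-strand breaks. The groups were gamma-H2AX in K562, an erythroleukaemia line, 1 h (n = 2) and 24 h (n = 2) after 6 Gy from a cobalt source, gamma-H2AX in HepG2, a liver carcinoma line, 1 h after the same dose (n = 1), and H2AX in K562 (n = 2) and in HepG2 (n = 2) that were not irradiated. The last group is H3K27me3 in irradiated K562 at 1 h (n = 1). The gamma-H2AX antibody was a mouse monoclonal (JBW301) and the H3K27me3 antibody a rabbit monoclonal (C36B11). The antibody label of the untreated H2AX libraries reads histone H4, and these libraries are called H2AX below as their titles do. No untreated gamma-H2AX and no irradiated H2AX library enters, so the antibody changes with the irradiation in each comparison of gamma-H2AX with H2AX, and their parts in a difference cannot be told apart. Gene expression was not measured, so the lines were not checked against marker genes.

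Values are levels, the mean read depth of a region divided by the mean of its library, so that 1 is the library's own genome mean. In reads per base that mean was 1.44 and 1.78 for the 1 h replicates of K562, 1.10 for H3K27me3 and 0.326 to 0.672 elsewhere, or 79.5 to 297 reads per 10 kb. Replicate 1 at 24 h stands apart: its track reads 0 in 36.2% of all bins, including all 933070 bins where the 1 h mean depth was above 1.64. In the clusters 9.42% to 12.7% of its bins were at 0, against 49.6% to 72.1% in their flanks. Replicate 2 had at most 1.9% there. Replicate 1 was therefore left out of the main comparisons, and counts of called windows over the clusters are given with it as well where they change.

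The promoters of these genes are shown first, because they mark out which genes in the clusters have the CG-rich type of start. The 250 bases before the gene start, from the RefSeq table (GRCh38.p14), were matched for 53 of 62, 14 of 27 and 59 of 63 genes. They held a median of 1, 2 and 2 CG dinucleotides, against 17 over 15842 protein-coding genes. The motif TATAAA, on either strand, was present in 81.1%, 42.9% and 50.8% of them, against 9.23% of all. At least 17 CG were found in 0, 0 and 2 of the matched promoters of the 3 runs. Those 2 are S100A10 and S100A6, with 24 each, and S100A11 and S100A13 follow with 15. Promoters that were not matched could not be counted. Among them are those of KRT18 on chromosome 12 and of KRT13, KRT15, KRT19, KRT14, KRT16 and KRT17 on chromosome 17. S100A10 and S100A11 open the chromosome 1 run and S100A6 and S100A13 lie in its last stretch, while FLG holds 1, LORICRIN 3 and IVL 0. One promoter of each run and the CG-rich S100A6 are printed 5′ to 3′ on the gene's strand, chosen after their counts were seen. Capitals mark CG and TATAAA.
FLG: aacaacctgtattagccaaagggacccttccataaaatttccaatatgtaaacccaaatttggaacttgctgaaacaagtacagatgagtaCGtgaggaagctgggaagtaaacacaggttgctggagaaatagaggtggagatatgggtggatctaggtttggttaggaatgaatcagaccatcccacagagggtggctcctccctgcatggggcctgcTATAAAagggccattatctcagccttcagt
KRT10: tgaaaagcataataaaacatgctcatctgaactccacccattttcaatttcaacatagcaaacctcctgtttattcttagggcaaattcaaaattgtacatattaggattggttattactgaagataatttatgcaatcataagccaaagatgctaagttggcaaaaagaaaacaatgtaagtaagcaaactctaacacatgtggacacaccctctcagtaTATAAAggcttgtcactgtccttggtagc
KRT5: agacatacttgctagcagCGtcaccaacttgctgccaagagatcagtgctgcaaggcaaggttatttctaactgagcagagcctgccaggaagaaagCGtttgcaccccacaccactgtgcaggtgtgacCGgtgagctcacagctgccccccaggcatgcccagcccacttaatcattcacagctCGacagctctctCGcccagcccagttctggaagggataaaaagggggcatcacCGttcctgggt
S100A6: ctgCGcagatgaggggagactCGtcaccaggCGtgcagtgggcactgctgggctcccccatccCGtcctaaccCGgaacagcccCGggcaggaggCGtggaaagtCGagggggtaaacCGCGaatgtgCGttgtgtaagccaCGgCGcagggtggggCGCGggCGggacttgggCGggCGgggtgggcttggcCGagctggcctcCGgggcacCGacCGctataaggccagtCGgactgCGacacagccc
The FLG and KRT10 sequences hold TATAAA shortly before their end, and the KRT5 sequence holds 6 CG and no TATAAA. These sequences come from another build than the tracks, so they were tied to the order of genes and not to single windows.

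In K562 at 1 h after irradiation the 3 clusters were poor in gamma-H2AX, and each flank had a higher level than its cluster. The chromosome 17 cluster had levels of 0.634 and 0.548 in the 2 replicates, against 0.876 and 0.837 for untreated H2AX. Its left flank reached 1.79 and 2.14 and its right flank 1.56 and 1.96. The cluster thus stood below H2AX and both flanks above it, in each replicate. On chromosome 12 the cluster had H2AX levels of 1.27 and 1.17 and 1 h gamma-H2AX levels of 0.683 and 0.586. Here the flanks differ, with 0.841 and 0.731 on the left and 1.72 and 2.12 on the right. H2AX was 1.38 and 1.31 in the left flank, so that flank was also below H2AX, and 1.36 and 1.30 in the right. The chromosome 1 cluster had 0.651 and 0.517, below an H2AX level of 1.09 in both libraries. Its flanks had 1.28 and 1.18 on the left and 1.70 and 2.08 on the right. H2AX was 1.40 and 1.30 in this left flank, above its gamma-H2AX, and 1.43 and 1.37 in the right. The 1 h values of the 3 clusters lay below all H2AX values of the same cluster with no overlap. The left flanks of chromosomes 12 and 1 showed the same separation. Among all 100-kb windows 37.7% were called lower than H2AX in the test given below, and separation without overlap was not counted over the genome.

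**Figure D1:**
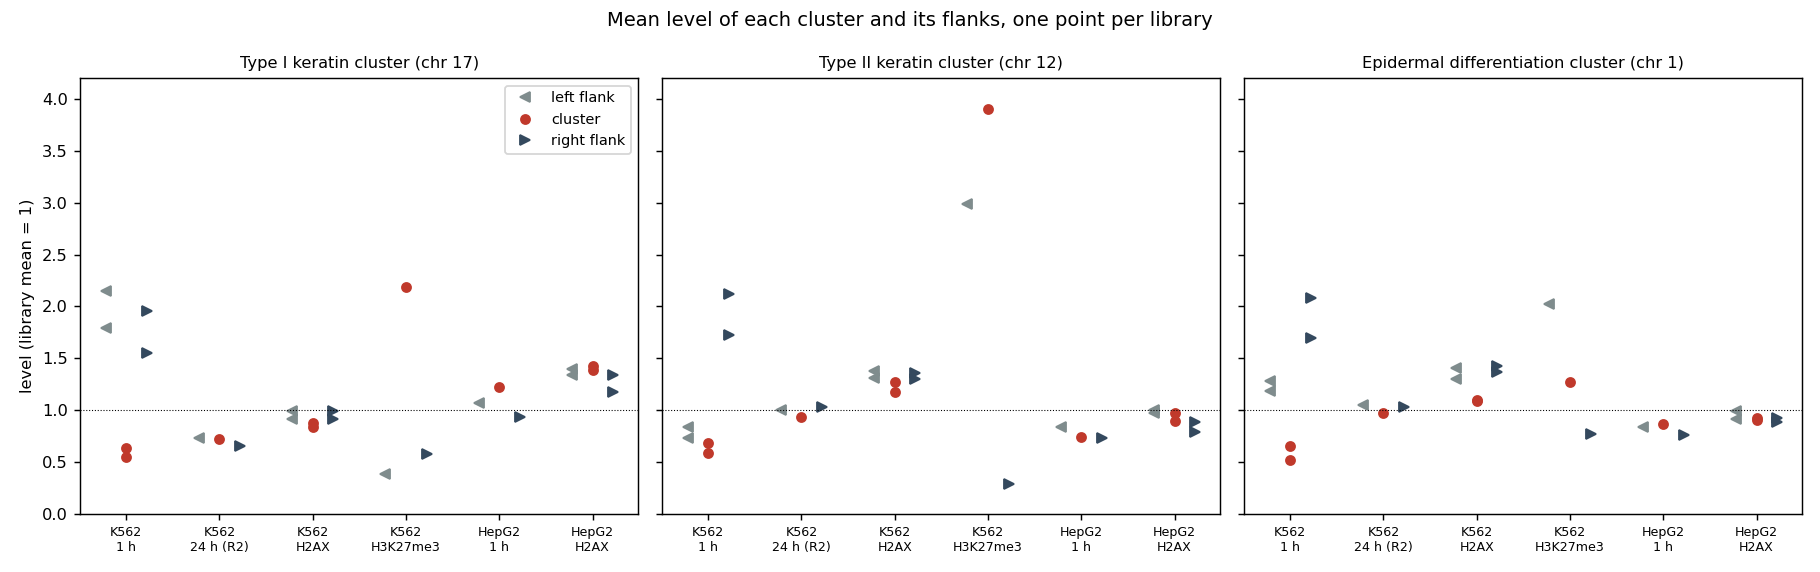
Mean level (depth divided by the library mean, y axis) of each cluster and its left and right 500-kb flanks, one point per library, for gamma-H2AX in K562 (1 h, and replicate 2 of 24 h), K562 H2AX, K562 H3K27me3, HepG2 gamma-H2AX at 1 h and HepG2 H2AX. In K562 at 1 h the cluster points sit between 0.517 and 0.683 and the right flanks between 1.56 and 2.12, while the HepG2 1 h points of clusters and flanks lie between 0.730 and 1.22.

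The log2 ratio of gamma-H2AX to H2AX in K562 at 1 h was set against both flanks together, with 2 libraries against 2. The SD given is the square root of the summed variances between replicates of both groups. The deficit was -1.50 (SD 0.36) on chromosome 17, -0.96 (SD 0.27) on chromosome 12 and -1.09 (SD 0.34) on chromosome 1. An exact two-sided permutation test gave p = 0.33 in each, the smallest value this design can reach. On chromosome 12 the size depends on the side, since the left flank had a log2 ratio of -0.78 and the right one 0.52, around -0.95 in the cluster. The K562 1 h and H3K27me3 libraries have reads of 60 bp and the others of 41 bp, as read from the steps of the tracks. Read length therefore changes with the group in K562, and its part in the differences was not tested.

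Tested in 100-kb windows across the genome, 34 of the 36 cluster windows were called in K562 at 1 h against H2AX (limma with Benjamini-Hochberg adjustment, adjusted p under 0.05), 3 higher and 31 lower. Of all 27610 windows tested, 71.1% were called, 33.3% higher and 37.7% lower, so the count of called windows in the clusters has to be read against a frequent call and the tilt is in the direction. The median log2 difference was -1.01 in the clusters and 0.06 over all windows. With 24 h replicate 1 in the fit the spread shared by all groups grows and 22 windows were called, all lower (4 on chromosome 17, 6 on chromosome 12 and 12 on chromosome 1), against 18.4% of all windows. Whether replicates were cultured separately is not in the labels, so the p-values rest on a spread between libraries that may be technical.

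In the type I cluster on chromosome 17, 7 of 10 windows were lower and 1 higher, with a median of -0.77. The lowest was chr17:39100001-39200000, with levels of 0.480 and 0.306 where H2AX had 0.894 and 0.863, a log2 difference of -1.10 (SE 0.17, adjusted p = 0.000665). The next, chr17:39300001-39400000, read 0.441 and 0.299 against 0.799 and 0.798 (-1.04, SE 0.16, adjusted p = 0.000621; 0.0514 with 24 h replicate 1). Both lie in the middle of the cluster, in a stretch of 5 windows (chr17:39100001-39600000) where the 1 h level did not exceed 0.493 in replicate 1 and 0.386 in replicate 2. The gene order places the keratin-associated proteins in the middle of the run. The window that rose was chr17:39600001-39700000, with 1.15 and 1.27 against 0.948 and 0.808 (0.44, SE 0.12, adjusted p = 0.00998; 0.108 with 24 h replicate 1). Windows chr17:38900001-39000000 and chr17:39000001-39100000 did not pass, at -0.07 (adjusted p = 0.530) and -0.27 (adjusted p = 0.0775).

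The type II cluster on chromosome 12 had the lowest median of the 3, -1.28, with 8 of 9 windows lower and 1 higher. The lowest was chr12:52800001-52900000, where 1 h gamma-H2AX was 0.499 and 0.294 and H2AX 1.20 and 1.17 (-1.51, SE 0.19, adjusted p = 0.000275). It was followed by chr12:52600001-52700000, with 0.445 and 0.341 against 1.20 and 1.11 (-1.46, SE 0.13, adjusted p = 0.00018). Over the first 5 windows (chr12:52500001-53000000) the log2 difference ran from -1.51 to -1.28, so this stretch was low throughout. The values of the last windows, at the KRT8 and KRT18 end, are described further on.

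In the epidermal differentiation cluster on chromosome 1, 16 of 17 windows were lower and 1 higher, with a median of -1.11. The lowest was chr1:153200001-153300000, with 0.526 and 0.375 at 1 h against 1.26 and 1.25 (-1.40, SE 0.15, adjusted p = 0.000188). Its left neighbour chr1:153100001-153200000 read 0.567 and 0.361 against 1.15 and 1.22 (-1.29, SE 0.18, adjusted p = 0.000372). At the right end the values turned: chr1:153400001-153500000 had 0.910 and 0.832 against 1.23 and 1.21 (-0.46, SE 0.10, adjusted p = 0.00372), and chr1:153500001-153600000 had 1.53 and 1.76 against 1.29 and 1.19 (0.39, SE 0.12, adjusted p = 0.0210). Neither of these last 2 passed with 24 h replicate 1 in the fit (adjusted p = 0.110 and 0.363). The gene order ends there with S100A6, S100A5, S100A4, S100A3, S100A2, S100A16, S100A14, S100A13 and S100A1.

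At 10 kb the clusters resolve into long low stretches with short raised islands. Of 349 windows tested, 19 were higher and 292 lower at 1 h than H2AX, against 18.7% higher and 36.6% lower among all 274222 (either direction 55.3%). With 24 h replicate 1 in the fit no 10-kb window of the genome was called, and 239 of the 349 had an unadjusted p under 0.05, against 30.7% of all windows (limma). The 19 raised windows form 7 stretches. On chromosome 17 they are chr17:38800001-38810000 at the left edge, chr17:38970001-39010000, and chr17:39650001-39690000, which starts 850 kb into the cluster. The last has mean levels of 1.94 and 2.37 where H2AX had 0.928 and 0.863. Around it the gene order lists KRT13 and KRT15 of stratified epithelia, KRT19 of simple epithelia, and then KRT9, KRT14, KRT16 and KRT17, but no gene was assigned to the stretch.

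On chromosome 1 the raised stretches are chr1:153480001-153530000, where 1 h gamma-H2AX was 1.99 and 2.43 and H2AX 1.23 and 1.08, and chr1:153580001-153600000, with 2.0 and 2.33 against 1.30 and 1.11, which reaches the right end of the cluster. The 2 on chromosome 12 are at the KRT8 and KRT18 end. The highest 10-kb window in each cluster was chr17:39680001-39690000 (2.05 and 2.92 against 1.05 and 0.768; log2 difference 1.40, SE 0.23), chr12:53290001-53300000 (1.97 and 2.88 against 1.26 and 1.31; 0.87, SE 0.22) and chr1:153500001-153510000 (2.49 and 2.74 against 1.17 and 0.826; 1.36, SE 0.22). Both replicates were above both H2AX libraries in each of these windows. The windows were picked by this same difference, so this is no further evidence. The lowest were chr17:39580001-39590000 (0.346 and 0.182 against 0.938 and 0.881; -1.66, SE 0.25), chr12:52840001-52850000 (0.367 and 0.219 against 1.21 and 1.32; -1.98, SE 0.23) and chr1:152460001-152470000 (0.263 and 0.162 against 0.902 and 0.854; -1.85, SE 0.23).

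**Figure D2:**
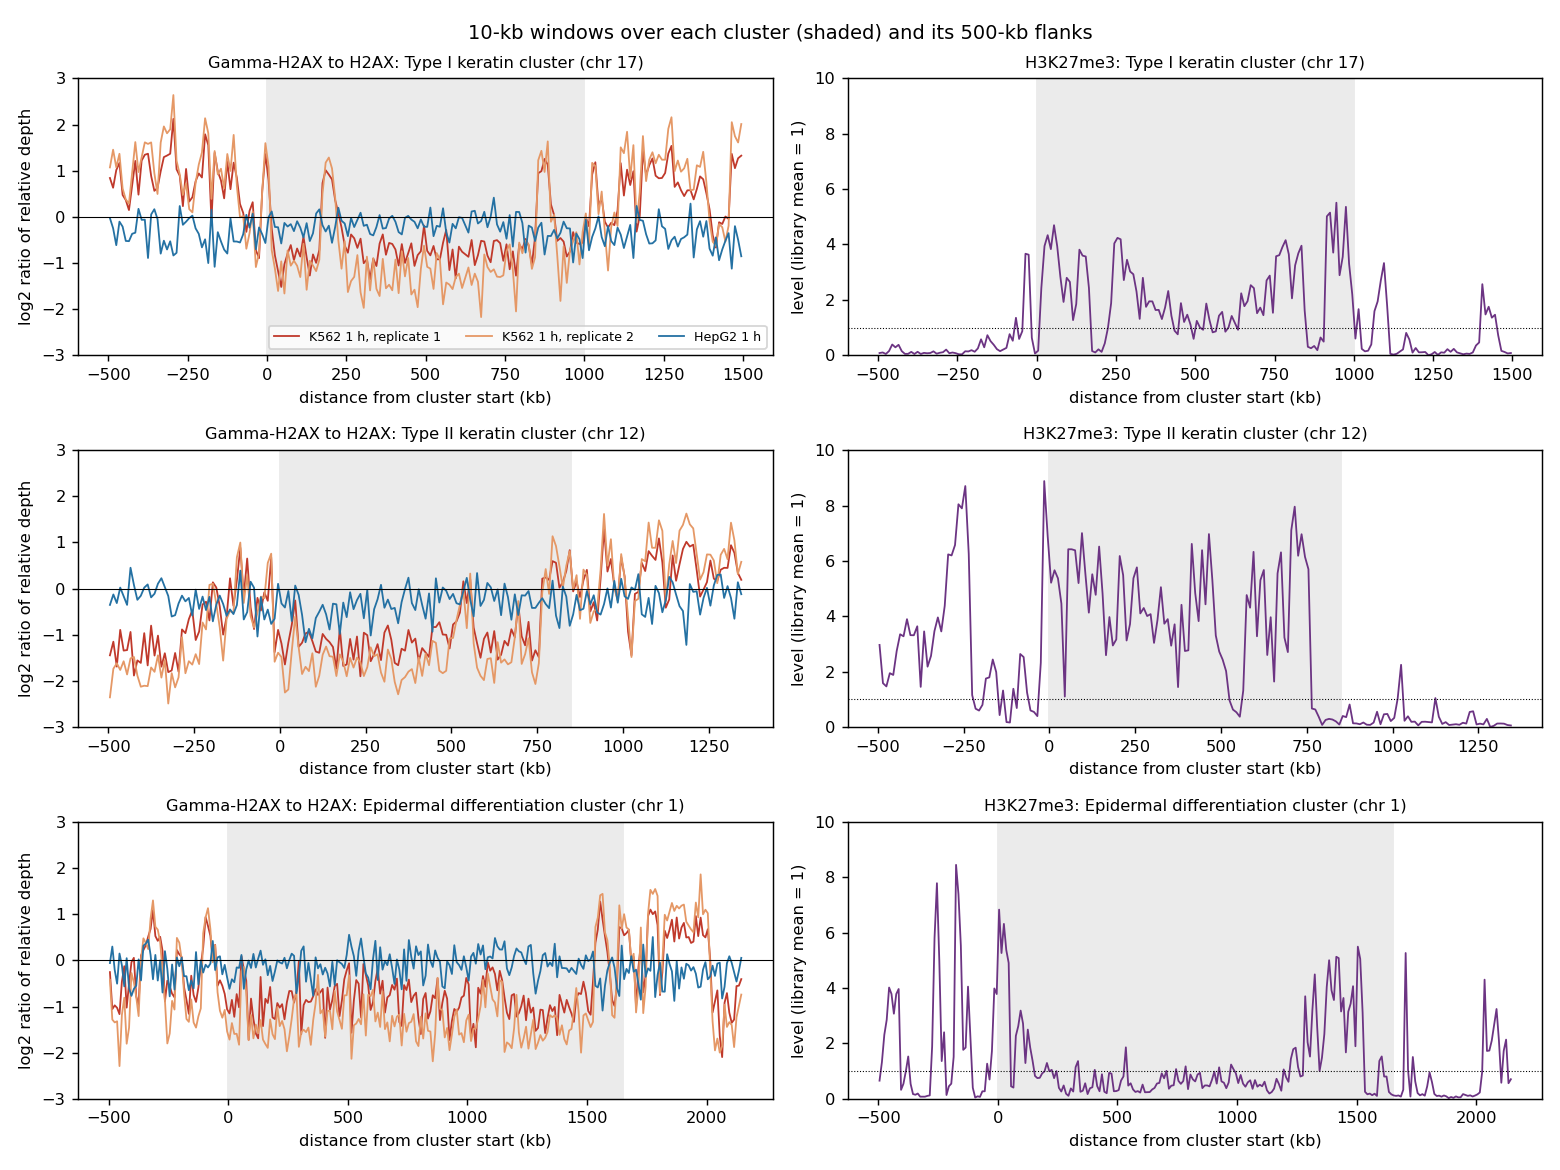
Left column, log2 ratio of gamma-H2AX to H2AX in 10-kb windows for both K562 1 h replicates and for HepG2 at 1 h. Right column, H3K27me3 level (library mean 1); the x axis is the distance from the cluster start in kb and the cluster is shaded. The K562 lines lie below 0 across most of each shaded span, and 7 stretches of windows were called higher than H2AX. The HepG2 line runs between -1.16 and 0.56 in the shaded spans.

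H3K27me3 separated the 2 keratin clusters from the epidermal differentiation cluster. Its level was 3.91 on chromosome 12, 2.19 on chromosome 17 and 1.28 on chromosome 1, in a single library. Against H2AX, 31 of the 36 windows were called, 23 higher and 8 lower, with 88.5% of all windows called, 26.7% higher and 61.7% lower (limma). Median-of-ratios scaling, which raises this library by 1.21 on the log2 scale and moves the others by -0.49 to -0.15, gave 30 higher and 1 lower. All 10 windows on chromosome 17 and 8 of 9 on chromosome 12 were higher, the exception being chr12:53300001-53400000. On chromosome 1 it was 5 higher and 7 lower of 17, and median-of-ratios scaling turned this to none lower. The median log2 difference on chromosome 1 was -0.44, above the -1.27 over all windows. With 24 h replicate 1 in the fit 25 of the 36 were called, 19 higher and 6 lower, against 69.5% of all windows, and the 10 on chromosome 17 became 8.

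The highest H3K27me3 in 100-kb windows was at the edges of the clusters. It read 5.32 at chr12:52500001-52600000, 4.02 at chr1:151900001-152000000, which starts 50 kb before the cluster, and 3.72 at chr17:39700001-39800000. Gamma-H2AX at 1 h was 0.548 and 0.367, 0.756 and 0.511, and 0.588 and 0.506 there, each pair below H2AX (adjusted p = 0.000339, 0.000471 and 0.00239; the last 0.111 with 24 h replicate 1). The flanks richest in H3K27me3, on the left of chromosomes 12 and 1, had the lowest gamma-H2AX at 1 h. The left flank of the chromosome 12 cluster, with low gamma-H2AX, carried H3K27me3 at 2.99, and the right flank, with high gamma-H2AX, at 0.283. On chromosome 17 the flanks had H3K27me3 of 0.386 and 0.578, with mean 1 h gamma-H2AX of 1.97 and 1.76. On chromosome 1 they had 2.03 and 0.772, with 1.23 and 1.89. The relation across flanks was not tested.

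The middle of the epidermal differentiation cluster lay below the library mean in both marks. Over 11 windows, chosen after the values were seen (chr1:152100001-153200000), H3K27me3 ran from 0.321 to 0.945 with a median of 0.659, and gamma-H2AX at 1 h from 0.481 to 0.831 in replicate 1 and 0.324 to 0.647 in replicate 2. These H3K27me3 levels stand between percentiles 47.4 and 66.2 of all windows, so they are below the library mean but not low for the genome. Untreated H2AX there had a median level of 1.00 in each K562 replicate, so the DNA was covered at the genome mean. Lower calls at 1 h were made in 37.7% of all windows and in 16 of the 17 of this cluster. All 11 windows of the stretch, chosen with these values known, passed as lower, from -1.29 to -0.52. The fit with 24 h replicate 1 lost 3 of them, those starting at 152400001 (adjusted p = 0.0808), 152500001 (0.104) and 153000001 (0.103). In 10-kb windows of the chromosome 1 cluster, 97 of the 107 with H3K27me3 under 1 also had gamma-H2AX under 1. The same was true of 11 of 21 on chromosome 17 and 2 of 13 on chromosome 12. Of the windows with H3K27me3 at 1 or more, gamma-H2AX reached 1 in 0 of 78, 1 of 72 and 1 of 58. Across 10-kb windows Spearman's rho between the 2 levels was -0.17 (n = 99), -0.43 (n = 85) and -0.12 (n = 165) on chromosomes 17, 12 and 1, and Pearson's r between their log2 values was -0.68, -0.87 and -0.24, given as a description since windows share libraries, depth and neighbours. In all 7 raised stretches H3K27me3 was at most 0.33 in any 10-kb window. Such low levels are common, since the median log2 difference of H3K27me3 to H2AX was -1.91 over all 10-kb windows of the genome. The shares of all windows under or above 1 in the 2 marks were not counted.

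**Figure D3:**
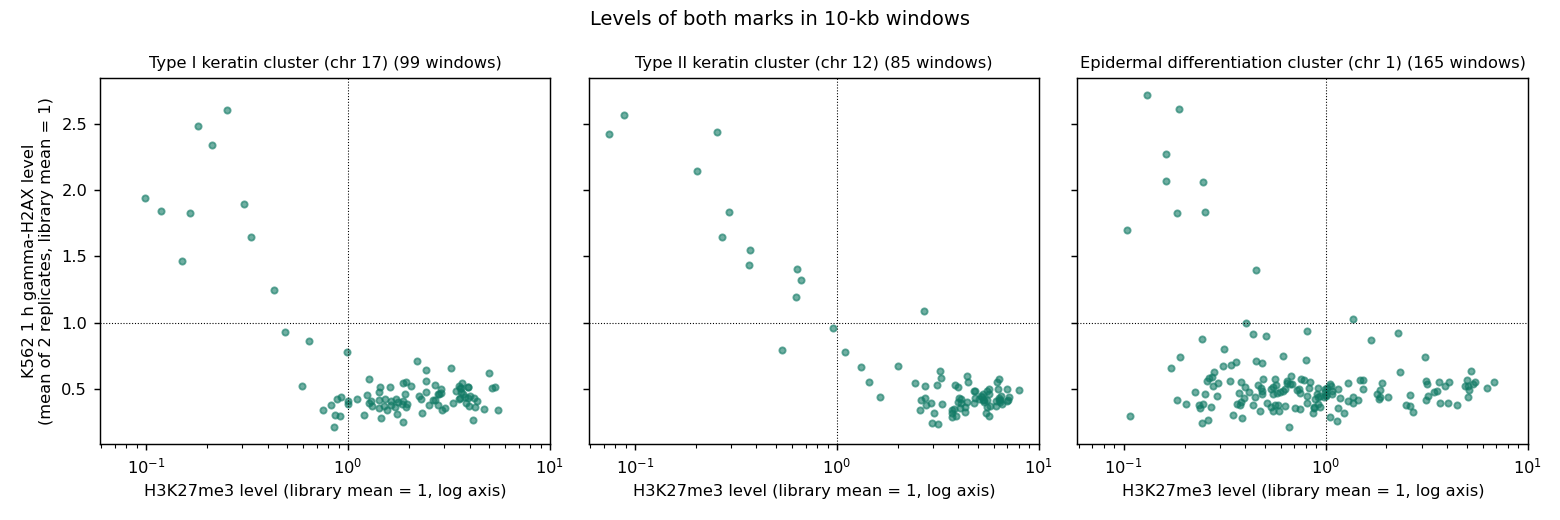
K562 gamma-H2AX level at 1 h (mean of 2 replicates, y axis) against H3K27me3 level (x axis, log scale) in 10-kb windows, one panel per cluster, with dotted lines at the library mean of 1. Windows above 1 on the y axis lie left of 1 on the x axis apart from 1 each on chromosomes 12 and 1, and on chromosome 1 the field under 1 on both axes holds 97 windows.

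The KRT8 and KRT18 end of the chromosome 12 cluster changed from one state to the other within 10 kb. The border was placed at 53260000 after the values were seen. The last 6 windows before it had H3K27me3 of 5.70 to 7.96, with gamma-H2AX at 1 h of 0.450 to 0.625 in replicate 1 and 0.266 to 0.477 in replicate 2. The 9 windows from 53260001 to the end of the cluster had H3K27me3 of 0.0745 to 0.667, with gamma-H2AX of 1.31 to 2.59 and 1.18 to 2.88. H2AX in K562 ran from 1.08 to 1.57 and 0.892 to 1.36 in the first stretch. In the second it ran from 1.15 to 1.72 and 1.04 to 1.59, so its ranges overlap. Those of H3K27me3 and K562 gamma-H2AX do not, but the border was placed with their values known, so this separation is no test. All 6 windows of the first stretch were lower than H2AX and 3 of the second higher, namely chr12:53290001-53300000, chr12:53300001-53310000 and the last window of the cluster, from 53340001. The other 6 lay between 0.04 and 0.44 on the log2 scale and did not pass. The last had levels of 2.59 and 2.54 where H2AX had 1.47 and 1.39 (0.82, SE 0.19, adjusted p = 0.00261).

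At 100 kb, chr12:53300001-53400000, of which the last 50 kb lie past the cluster, had 1.68 and 1.80 after 1 h, where H2AX read 1.43 and 1.31 (0.33, SE 0.11, adjusted p = 0.0232; 0.573 with 24 h replicate 1). Its left neighbour, which ends at 53300000 and holds the border, had 0.943 and 0.917 against 1.34 and 1.20 (-0.43, SE 0.11, adjusted p = 0.00785; 0.125 with 24 h replicate 1). In HepG2, a line of hepatic origin, the same end showed no such step. Gamma-H2AX was 0.632 to 0.898 in the first stretch and 0.589 to 0.948 in the second, and HepG2 H2AX was 0.678 to 1.11 and 0.636 to 1.27. H3K27me3 in HepG2 was not analysed here.

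**Figure D4:**
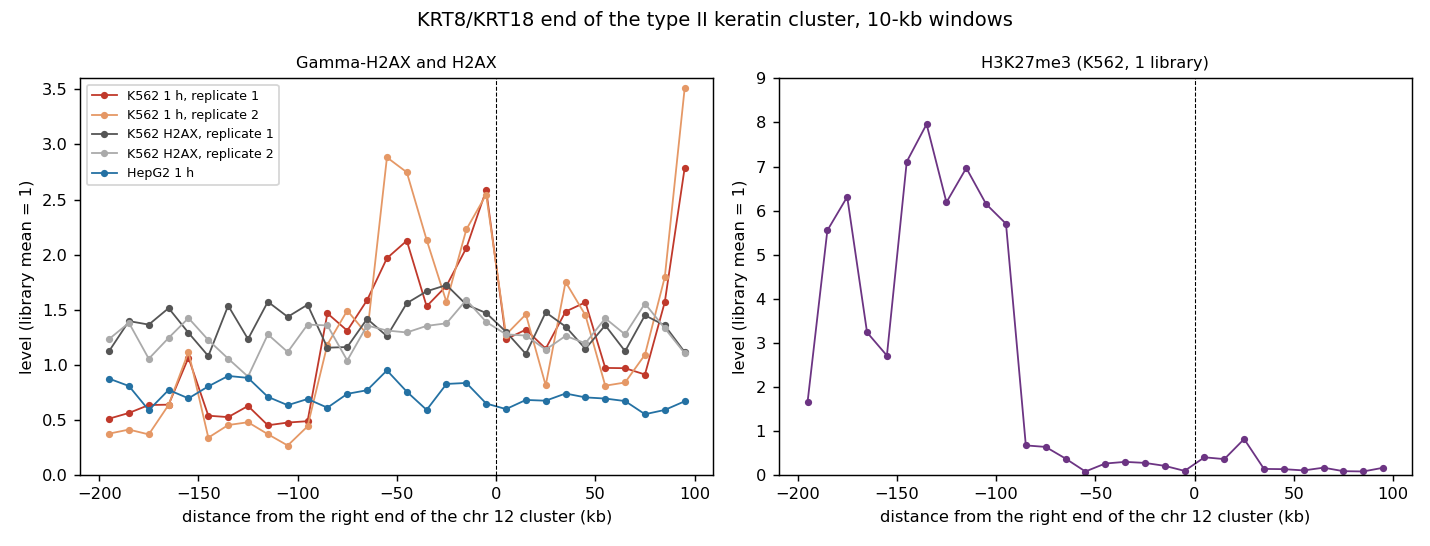
Levels in 10-kb windows by distance from the right end of the chromosome 12 cluster (x axis, kb), with gamma-H2AX and H2AX on the left and H3K27me3 on the right (y axis, library mean 1). H3K27me3 drops from 5.70 to 0.667 between neighbouring windows, and the K562 1 h lines rise from under 0.5 to above 1 at the same place while HepG2 at 1 h stays under 1.

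The authors' peaks at 1 h were fewer in the clusters than in the flanks, and the bins called in both lists lay in or beside the raised stretches. In the K562 1 h lists the clusters held 1, 2 and 3 peaks in replicate 1 and 7, 6 and 8 in replicate 2, on chromosomes 17, 12 and 1. Their flanks held 39, 19 and 33, and 73, 40 and 50. Bins touched by peaks of both lists made up 0.229% of cluster bins, 5.0% of flank bins and 1.98% of all bins. These 8 cluster bins lie at chr17:39680001-39682000, chr12:53289001-53291000, chr12:53346001-53347000 and within chr1:153498001-153516000. The authors' fold enrichment was highest at chr1:153504038-153505666 in replicate 2, at 2.59. With q under 0.05 no cluster bin and no flank bin remained in both lists, against 0.0229% of all bins. In replicate 2 alone, 7 of the 8 peaks in the chromosome 1 cluster had q under 0.05. No other cluster peak of either 1 h list did. The 24 h lists and the HepG2 list, with 8, 13 and 170 peaks in all, had none in the clusters or the flanks.

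At 24 h the clusters in replicate 2 lay nearer to their H2AX level than at 1 h. It read 0.723 on chromosome 17, 0.932 on chromosome 12 and 0.969 on chromosome 1, and its log2 ratio to H2AX exceeded that of the flanks by 0.22 and 0.23 on chromosomes 17 and 1 and by 0.01 on chromosome 12. The mean of both 24 h replicates gave 1.03 on chromosome 17, 0.72 on chromosome 1 and 0.45 on chromosome 12. Against H2AX no 100-kb window was called in the clusters or in the genome (percent called 0). Unadjusted p was under 0.05 in 8 of the 36 and in 29.1% of all. A fit of the compared groups alone called 21 of the 36, all lower, against 55.2% of all. With replicate 1 in place of replicate 2 the direction turned: 13 were called, 11 higher and 2 lower, against 74.9% of all. Between 1 h and 24 h, 31 of the 36 windows differed, 3 higher and 28 lower at 1 h, against 57.3% of all windows, 20.5% higher and 36.8% lower (limma). Adding 24 h replicate 1 gave 30 (47% of all). The fit of the compared groups alone called 4, of which 3 were higher and 1 lower, against 27.7% of all windows. The 3 higher windows were those at chr17:39600001-39700000 (0.78, SE 0.14), chr12:53300001-53400000 (0.64, SE 0.13) and chr1:153500001-153600000 (0.63, SE 0.15). Both comparisons with 1 h use the same 1 h libraries. Replicate 1 at 24 h, left out, read 0.994, 1.42 and 1.45 in the clusters. At 10 kb the 1 h to 24 h comparison called 250 of the 349 windows (47.6% of all windows) and the H3K27me3 comparison 271 (85.3%). These became 202 (31.4%) and 183 (58.8%) with 24 h replicate 1 in the fit.

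In HepG2 the clusters had gamma-H2AX levels near those of their flanks at 1 h, relative to H2AX. Gamma-H2AX was 1.22, 0.744 and 0.868 on chromosomes 17, 12 and 1, against H2AX of 1.43 and 1.39, 0.976 and 0.897, and 0.926 and 0.908. The log2 ratio set against the flanks was 0.18, -0.11 and 0.14, from 1 gamma-H2AX library. No 100-kb window was called (percent called 0), with unadjusted p under 0.05 in 5 of the 36 and 6.01% of all (limma), and a fit of the compared groups alone called 18, 17 of them lower, against 30.8% of all. The median log2 difference was -0.16 in the clusters and 0.01 over all windows.

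The difference between the responses of the 2 lines was itself tested, as the gamma-H2AX to H2AX difference in K562 less that in HepG2. It was called in 30 of the 36 windows, 3 higher and 27 lower in K562, against 45.7% of all windows, 16.4% higher and 29.3% lower (limma). With 24 h replicate 1 in the fit none was called in the genome, and unadjusted p was under 0.05 in 11 of the 36, against 14.8% of all windows. At 10 kb 167 of the 349 windows were called, against 28.8% of all. With 24 h replicate 1 in the fit none was called at 10 kb, and 72 had an unadjusted p under 0.05, against 11.5% of all. The window with the lowest p in each cluster was chr17:39600001-39700000 (0.82, SE 0.19, adjusted p = 0.00943), chr12:52700001-52800000 (-1.15, SE 0.20, adjusted p = 0.00556) and chr1:153200001-153300000 (-1.31, SE 0.23, adjusted p = 0.0056). In the first, K562 rose over H2AX as given above while HepG2 read 1.08 against 1.50 and 1.35. In the second, K562 had 0.433 and 0.350 against 1.18 and 1.10, and HepG2 0.765 against 1.01 and 0.890. The median over the clusters was -0.85, and that over all windows was 0.00 to 2 decimals.

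Untreated H2AX differed between the lines in a direction that depended on the chromosome, in both the clusters and their flanks. All 10 windows on chromosome 17 were lower in K562, from -0.74 to -0.53, with cluster levels of 0.876 and 0.837 against 1.43 and 1.39 in HepG2. On chromosome 12, 5 of 9 windows were higher in K562 and on chromosome 1, 4 of 17, with none lower. In all, 19 of the 36 were called, 9 higher and 10 lower, against 54.3% of all windows, 24.5% higher and 29.7% lower (limma). At 10 kb the count was 84 of 349 (30.3% of all). At both sizes the clusters were called no more often than all windows of the genome. With 24 h replicate 1 in the fit 2 of the 36 were called (8.89% of all) and no 10-kb window of the genome, where 39 of the 349 had an unadjusted p under 0.05 against 15.4% of all. Without that library, scaling to the chromosome mean gave 3 higher and 10 lower. The flanks moved with the clusters in the K562 to HepG2 log2 ratio. It was -0.52 and -0.40 in the chromosome 17 flanks against -0.72 in the cluster. On chromosome 12 it was 0.44 and 0.67 against 0.38, and on chromosome 1 it was 0.51 and 0.63 against 0.25. On each chromosome the cluster stood below its flanks in K562 relative to HepG2, with differences of log2 ratios of -0.26, -0.17 and -0.32 in untreated cells.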

How the data were processed

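The deposited signal tracks of the 10 CUT&RUN libraries hold read coverage, as mean depth per base in 1-kb bins of hg19, not scaled to depth. Per the submitters' processing notes BWA 0.7.12, SAMtools and MACS2 were used; no settings are stated. The deposited peak lists, 1 per gamma-H2AX library, give the authors' fold enrichment and −log10 of the q-value per peak; the control behind the fold is not stated.

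Bins were averaged over 100-kb and 10-kb windows that hold 50% of their bins or more, then divided by the library mean without chromosome Y. A window belongs to a cluster if its centre does; all 36 and 349 of 350 passed the filter, an H2AX mean of at least 0.25 in both lines. All windows of the genome were fitted on log2(level + 0.05), so folds of windows near 0 are understated, with limma 3.58.1 (R 4.3.3) with a mean-variance trend, 6 group means, 9 libraries and 3 residual degrees of freedom (4 with 24 h replicate 1), and Benjamini-Hochberg adjustment over all windows. Groups of 1 library are assumed to vary like the others. Cluster and flank ratios were computed per library with Python 3.11.15 and pandas 2.3.3. Peaks count for a bin when they touch it. Intervals for sampling of reads were not computed; 10-kb windows rest on about 79.5 to 297 reads at the library mean.

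Windows named are, per cluster, the 2 highest and 2 lowest at 1 h over H2AX, the highest in H3K27me3, the lowest p for the difference between lines, the KRT8 and KRT18 end, and at 10 kb the 3 highest and 3 lowest, of which the text prints the extreme one; windows that failed a test are named beside their counts. Members and lists were chosen with earlier results of these data known. Alternatives comprised the library left out, other scalings, pseudocounts, filters, flank widths, fits and each replicate left out. Gene order and promoters came from RefSeq tables of GRCh38.p14, from which no coordinates were taken.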

Additional observations from a re-analysis of the deposited data

Results flagged for a closer look

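The gamma-H2AX to H2AX difference at 1 h was not the same in K562 and HepG2 in 7 of 10 windows of the chromosome 17 cluster, 7 of 9 on chromosome 12 and 16 of 17 on chromosome 1, by a test of the difference itself (limma interaction, adjusted p under 0.05). Over all windows of the genome 45.7% were called in this test, 16.4% higher and 29.3% lower in K562. The largest evidence per cluster came from windows with differences of 0.82 (chr17:39600001-39700000), -1.15 (chr12:52700001-52800000) and -1.31 (chr1:153200001-153300000) on the log2 scale. None of these calls remained with 24 h replicate 1 in the fit. HepG2 gamma-H2AX is 1 library with 41-bp reads and K562 at 1 h has 60-bp reads, and their part in the difference was not tested.

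Relative to its flanks, the cluster ratio had opposite signs in the lines on 2 chromosomes: HepG2 had 0.18 on chromosome 17 and 0.14 on chromosome 1, where K562 had -1.50 and -1.09. This difference was not tested.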

How the results depend on the processing

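Of 754 values of named windows under other settings 701 kept their direction and side of the threshold, 47 lost the call, 34 of them with 24 h replicate 1 in the fit, 6 gained one and none changed sign as a call. Adding that library gave 22 windows for K562 1 h over H2AX, 0 for the difference between lines and 2 for untreated H2AX. A fit of the compared groups alone gave 4 windows for 1 h against 24 h, 21 for 24 h and 18 for HepG2 over H2AX and 29 for untreated H2AX, with fewer libraries behind the spread. For untreated H2AX that fit called 79.1% of all windows. In 10-kb windows, which are more numerous, the counts were 311 for 1 h over H2AX, 250 for 1 h against 24 h, 167 for the difference between lines, 84 for untreated H2AX and 271 for H3K27me3. Leaving out 1 library at a time gave 30 to 35 windows for 1 h over H2AX, 29 to 35 for 1 h against 24 h, 0 to 25 for 24 h, 0 to 14 for HepG2, 11 to 34 for the difference between lines, 9 to 29 for untreated H2AX and 29 to 36 for H3K27me3. The share of all windows called moved with them, from 47.1% to 88.5%, 51.9% to 81.8%, 0 to 74.9%, 0 to 20.4%, 23.4% to 73.1%, 27.9% to 79.3% and 83.4% to 95.2% in that order, so these changes are not particular to the clusters. For 24 h the 25, all lower, came without either 1 h replicate, and 13, 11 of them higher, came with replicate 1 in place of replicate 2. The HepG2 count of 14 came without either K562 1 h replicate. For the difference between lines, leaving out a K562 H2AX replicate gave 13 and 11 and leaving out a HepG2 H2AX replicate gave 17 and 18. For untreated H2AX the 29 came without either K562 1 h replicate, 9 and 11 without a K562 H2AX replicate, and 10 without HepG2 replicate 2. The causes were not tested.

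Set against the flanks, the H3K27me3 ratio on chromosome 17 was 3.79 with medians of bins, 1.82 with 250-kb and 2.14 with 1000-kb flanks. On chromosome 12 it was 3.26, 1.69 and 1.14. On chromosome 1 it was 1.23 with medians and 0.41 with 1000-kb flanks, and the cluster's own ratio turned to -0.66 with medians. The HepG2 value was -0.16 with medians and -0.026 with 250-kb flanks on chromosome 12, and 0.20 with 1000-kb flanks on chromosome 1. At 24 h the chromosome 12 value turned to -0.018 with medians and ran from -0.016 to 0.027 with 1 H2AX library left out. The chromosome 1 cluster ratio turned to 0.12 with both 24 h replicates. Cluster bins in peaks came to 1.20% with either list, and 0.372% to 1.06% with 1 list.

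The replicate numbers were checked as pairs by correlating deviations from group means over windows. The value was 0.18 for K562 1 h with K562 H2AX, 0.03 for K562 1 h with HepG2 H2AX and 0.30 for H2AX of both lines. Each group gives only 1 difference between replicates, so whether the numbers pair the libraries cannot be settled from this. With the replicate block 34, 31, 0, 0, 24, 19 and 33 windows were called in the order of the comparisons above, where the unblocked fit gave 34, 31, 0, 0, 30, 19 and 31. The shares of all windows called were 73.2%, 56.1%, 0, 0, 38.3%, 54.6% and 86.7% with the block. Without it they were 71.1%, 57.3%, 0, 0, 45.7%, 54.3% and 88.5%. The ratios of clusters to flanks in K562 at 1 h were -1.5, -0.96 and -1.09 with the replicate block.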
